A study of Mus musculus with 12 samples.

Results

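Liver transcripts that keep intron sequence were compared between lean and obese mice in 2 models of obesity. The members are the assembled transcripts of protein-coding genes whose closest Ensembl transcript has the type retained intron and which the authors' Cuffdiff run could test. They numbered 796 of 62486 listed transcripts in the comparison of HFD with CD livers, from 747 genes, and 750 of 62945 in the comparison of db with misty livers, from 694 genes. They were set beside the protein-coding transcripts of the same genes, called coding partners below. In the dietary model, wild-type C57BL/6 mice received a high-fat diet (HFD, 54 kJ% fat) or a control diet (CD, 11 kJ% fat). In the genetic model, mice labelled Leprdb (db), whose leptin receptor does not signal and which become obese, were set against misty mice, labelled Dock7m +/+ Leprdb and described in the study's methods as lean misty controls. Both groups of the genetic model received the normal diet that the labels call NCD. The labels give 3 livers per group, an age of 36 weeks and the strain C57BL/6 for all 12 mice. The study's methods describe male mice and give another strain background, a younger age and more animals for db and misty, so these remain uncertain.

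An intron is normally cut out of the RNA before the mRNA leaves the nucleus. A transcript that keeps an intron is mostly held in the nucleus or, where it reaches the ribosome, is often destroyed by nonsense-mediated decay because the intron brings a premature stop codon. Cells are known to use such transcripts to hold back mRNAs, for example those of the SR proteins and the CLK kinases that run splicing itself. Total RNA also holds unspliced precursor RNA, and a short-read assembly cannot tell it from a finished transcript that keeps an intron. Expression is given in FPKM (fragments scaled to transcript length and library size), as 1 value per group that the authors pooled over the livers. No spread between livers could be computed, so no difference reported here has a replicate check or a test, and the depth behind each value is unknown. A difference is given as the log2 ratio of obese over control after adding 0.1 FPKM to both values, which understates the change of low transcripts. Ratios of at least 1 in size are called past 2-fold.

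Of the 1070 different reference transcripts behind the members of both comparisons, 1063 were found in GENCODE release M21 of the same genome build (GRCm38), 1059 of them still typed as retained intron. They had a median length of 2670 bases and a median of 4 exons, and 152 were a single exon. A whole intron of a coding transcript of the same gene lay inside an exon of 495 of them. Another 564 held only part of an intron, for example because the transcript begins or ends within it, and 4 held neither. Of the first kind, 305 kept 1 intron and 190 kept 2 or more, up to 11. Thrsp, Sqle, Ghr and Nrxn3, which lead several of the comparisons, belong to the second kind, while Saa1, Saa2, Cxcl1, Cyp2a22, Ces3b and Hspa8 belong to the first.

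The 793 different whole introns were short, with a median of 467 bases against 1658 bases for the 13208 other introns of the same genes. Under 300 bases were 35.4% of the kept introns and 14.9% of the others. A kept intron that held a shorter kept intron was dropped. The other introns were not thinned in this way, which favours short kept introns. The comparison is of annotated introns and involves no measurement of these livers. The splice sites of 774 introns were the usual GT and AG, 10 had GC and AG, and 2 had AT and AC, the ends of one class of introns cut by the minor spliceosome. Among the 735 kept introns between coding exons, 676 (92.0%) brought a stop codon in the reading frame of the exon before them. Counted from the first codon that reaches into the intron, the median position of that stop was codon 14. Of the 59 introns with no such stop, 17 had a length that is a multiple of 3 and would keep the reading frame.

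**Figure D1:**
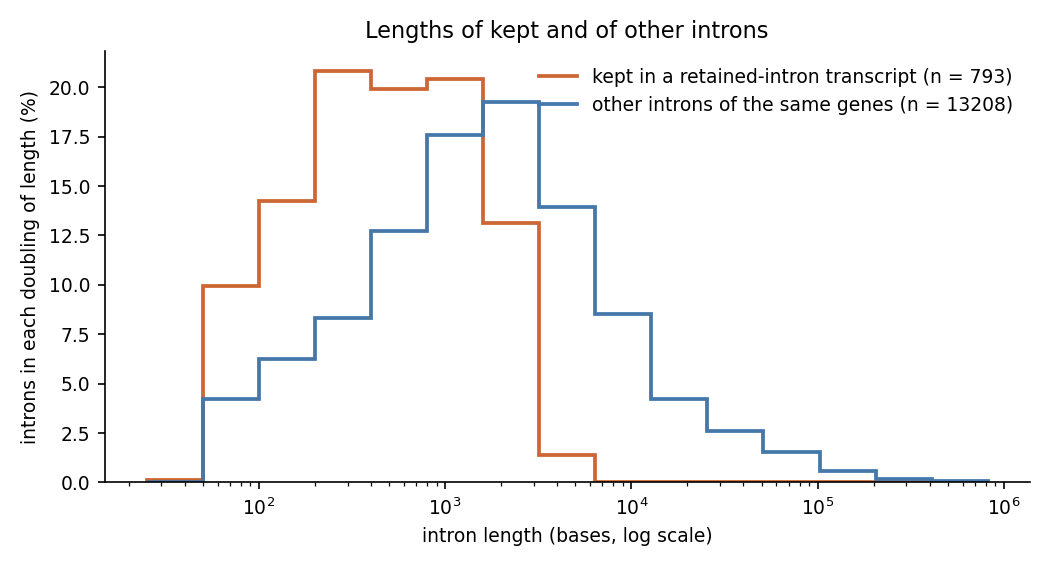
Length in bases (log scale) of the 793 introns kept whole in a retained-intron transcript (orange) and of the 13208 other annotated introns of the same genes (blue), as the percent of introns in each doubling of length. The kept introns lie to the left, with a median of 467 bases against 1658, and none is longer than 4690 bases.

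The introns shown first are short ones kept by members that the results turn on, each with 10 bases of the coding exons on both sides. Capitals mark the first and the last 2 bases of the intron. They were read from the GENCODE M21 transcript sequences (GRCm38).
Cxcl1 intron 1 (chr5:90891371-90891479, plus strand): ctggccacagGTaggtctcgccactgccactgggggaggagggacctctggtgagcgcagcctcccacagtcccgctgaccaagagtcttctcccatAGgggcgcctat
Cxcl1 intron 2 (chr5:90891584-90891718, plus strand): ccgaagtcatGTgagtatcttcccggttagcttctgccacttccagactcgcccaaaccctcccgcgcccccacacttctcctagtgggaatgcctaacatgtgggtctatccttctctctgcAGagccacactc
Ces3b intron 3 (chr8:105085386-105085565, plus strand): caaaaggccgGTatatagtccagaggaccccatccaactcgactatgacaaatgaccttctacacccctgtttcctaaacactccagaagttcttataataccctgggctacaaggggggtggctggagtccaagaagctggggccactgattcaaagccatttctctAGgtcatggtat
Hspa8 intron 7 (chr9:40804354-40804472, plus strand): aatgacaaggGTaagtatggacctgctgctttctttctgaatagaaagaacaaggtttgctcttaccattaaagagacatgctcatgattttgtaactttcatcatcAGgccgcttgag
Gnmt intron 4 (chr17:46726173-46726278, minus strand): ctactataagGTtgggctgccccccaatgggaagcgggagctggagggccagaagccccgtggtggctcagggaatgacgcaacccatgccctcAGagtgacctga
Prpf38b intron 3 (chr3:108907838-108907941, minus strand): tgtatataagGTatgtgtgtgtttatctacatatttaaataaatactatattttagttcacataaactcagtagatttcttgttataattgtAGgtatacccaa
The Cxcl1 introns are 89 and 115 bases long and sit in a single-exon transcript of 1871 bases that keeps all 3 introns of the gene. The Ces3b intron has 160 bases and a stop at codon 15. The Hspa8 intron, of 99 bases, has a stop at codon 21. The Gnmt intron, of 86 bases, has no stop in the frame of its exon but does not keep the frame. The Prpf38b intron is only 22.6% G and C, against a median of 49.8% for all kept introns.

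For longer introns of members with large differences, or with unusual ends, the last 10 exon bases with the first 20 intron bases are shown as the start, and the last 20 intron bases with the first 10 exon bases as the end.
Saa1 intron 3, start (chr7:46741236-46741265, minus strand): agaaaatcagGTaactcagaaggctgggta
Saa1 intron 3, end (chr7:46740833-46740862, minus strand): tgtgtgtctgcttctcctAGtgatggaaga
Saa2 intron 3, start (chr7:46753547-46753576, plus strand): agaaaatcagGTaactcagaaggctgggta
Saa2 intron 3, end (chr7:46753951-46753980, plus strand): tgtgtgtctgcttctcctAGtgatgcaaga
Cyp2a22 intron 4, start (chr7:26937687-26937716, minus strand): cacaggtcagGTaacagactccagctctgc
Cyp2a22 intron 4, end (chr7:26936476-26936505, minus strand): ttttctccccccacccccAGctctatgaca
Cyp2a12 intron 4, start (chr7:27031253-27031282, plus strand): cacagggcagGTaagagactccagctctgc
Cyp2a12 intron 4, end (chr7:27032467-27032496, plus strand): ttttctcctcccacccccAGctctatgaca
Cyp2c50 intron 4, start (chr19:40091096-40091125, plus strand): ttggttgcagGTgaagtcatgattccttga
Cyp2c50 intron 4, end (chr19:40092184-40092213, plus strand): aattcttgaattccctatAGgtttgcaata
Fmo1 intron 7, start (chr1:162833510-162833539, minus strand): gtcctaaaagGTaactgtgtgagaaatatc
Fmo1 intron 7, end (chr1:162833026-162833055, minus strand): ataatgcgatggttttctAGgtgcaactac
Srsf6 intron 2, start (chr2:162932133-162932162, plus strand): ggaagccgcaGTgagtccttacccccgcgc
Srsf6 intron 2, end (chr2:162932795-162932824, plus strand): ttgatgtttcaatttgaaAGtgaccaatgg
Aox1 intron 13, start (chr1:58061296-58061325, plus strand): gtccaggaagGCaaggatggcccttcatct
Aox1 intron 13, end (chr1:58062112-58062141, plus strand): tttgtgcctcttttcttcAGtgggagtttg
Tcea2 intron 6, start (chr2:181686237-181686266, plus strand): atcgaggagtATatcctttgtacagggtat
Tcea2 intron 6, end (chr2:181686578-181686607, plus strand): gggtccttaaacacctgcACgcatcttcct
The Saa1 and Saa2 starts read alike. Over their whole length, intron 3 of Saa1 (413 bases) and of Saa2 (414 bases) were 98.8% identical and intron 2 was 96.5% identical. Intron 4 of Cyp2a22 (1221 bases) and of Cyp2a12 (1224 bases) were 95.3% identical. Reads of such pairs can be split between the copies, so the values of Saa1, Saa2, Cyp2a22 and Cyp2a12 are uncertain as to which copy they belong to. Cyp2c50, Ces3b and the H2 genes also belong to families with close relatives, for which no identity was computed. Aox1, which encodes an aldehyde oxidase, is shown for its GC start. Tcea2, which encodes a transcription elongation factor, is shown for its AT and AC ends and was at 0.270 FPKM in misty and 0.211 FPKM in db.

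Most members were weakly expressed. The median was 0.586 FPKM in CD and 0.583 FPKM in HFD livers, against 0.902 and 0.937 FPKM for the 12607 coding transcripts tested in the same table. In the genetic model it was 0.621 FPKM in misty and 0.554 FPKM in db livers, against 0.907 and 0.887 FPKM for 12278 coding transcripts. At least 1 FPKM in the higher group was reached by 253 of 796 and 238 of 750 members, and at least 10 FPKM by 13 and 12.

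Among the abundant members of the dietary model, Hspa8, which encodes the constitutive Hsc70 chaperone, had 46.6 FPKM in CD and 34.4 FPKM in HFD. This transcript keeps 5 whole introns, and 3 snoRNA genes (Snord14c, Snord14d and Snord14e) lie inside its exons on the same strand, so their reads cannot be told apart from it. Rsrp1, an arginine and serine rich protein gene, was at 35.7 and 37.2 FPKM, and H2-Q10, a class I gene secreted by the liver, at 34.2 and 32.8 FPKM. The muscle and fat carbonic anhydrase gene Car3 had 16.6 FPKM in CD livers and 26.8 FPKM after HFD, and Slco1b2, an uptake transporter of hepatocytes, at 13.6 and 9.54 FPKM.

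In the genetic model Saa2, a serum amyloid A gene of the acute phase, had the highest mean of both groups, with 22.8 FPKM in misty, below Hspa8 and Ncoa6, and 97.6 FPKM in db livers. Its neighbour Saa1 was at 19.1 and 30.8 FPKM. Hspa8 was at 42.2 FPKM in misty and 29.1 FPKM in db, the same direction as in the dietary model. Ncoa6, a nuclear receptor coactivator gene, was at 38.7 and 23.3 FPKM. Oip5, a centromere protein gene, was at 12.4 and 16.5 FPKM, and its transcript overlaps exons of Nusap1 on the other strand. The tables were normalized separately, so levels are not compared between the models.

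Retained-intron transcripts of Thrsp, Cyp2a22, Sqle, Saa1 and Saa2 were among those with the highest ratios of HFD over CD. Of the 796 members, 28 (3.52%) were past 2-fold higher and 7 (0.879%) past 2-fold lower in HFD. Among all 19834 transcripts tested, 6.80% were past 2-fold higher and 3.89% past 2-fold lower, so both shares of the members were below the background. With at least 1 FPKM in the higher group, 10 members (3.95%) were higher and 2 (0.791%) lower, against 6.76% and 3.77% of all transcripts at that level. The median log2 ratio of the members was -0.03, as was that of all transcripts.

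The largest ratio belonged to Thrsp (chr7:97416120-97417519), a regulator of fatty acid synthesis, with 1.15 FPKM in CD and 14.0 FPKM in HFD, a log2 ratio of 3.49. Cyp2a22, a cytochrome P450 gene, had 0.646 and 6.76 FPKM (3.20). Sqle, squalene epoxidase of cholesterol synthesis, had 0.551 and 3.99 FPKM (2.65). These 3 transcripts were higher by 7.24-fold to 12.1-fold. Cib3, a calcium-binding protein gene, went from 0.224 to 1.30 FPKM. The acute-phase pair was higher too, with 1.94 and 8.22 FPKM for Saa2 and 1.30 and 4.45 FPKM for Saa1.

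The other members named here include genes active in immune cells, grouped after their values were seen. Cxcl1, a chemokine that attracts neutrophils, had 1.06 FPKM in CD and 3.63 FPKM in HFD (log2 ratio 1.69). Jchain, the joining chain of polymeric antibodies, had 1.10 and 3.05 FPKM, and Rgs1, a G protein regulator of lymphocytes, 0.428 and 1.17 FPKM. Limch1 had 0.488 and 1.40 FPKM. Below 1 FPKM, and picked out after their values were seen, lay Ccl2, Ccl5, Itgax, Ms4a7, Ptpn22 and S100a8, with HFD values from 0.318 FPKM (Ccl5) to 0.680 FPKM (Ccl2). Markers of several cell types other than hepatocytes were higher in the same pooled values. The 10 macrophage markers summed to 45.1 FPKM in CD and 108 FPKM in HFD, with 8 of 10 higher. Most of that sum was Lyz2, with 29.1 and 73.9 FPKM. The markers that were not higher were Clec4f, with 5.55 and 5.03 FPKM, and Adgre1, with 0.124 and 1.71e-06 FPKM. Csf1r, Marco and Gpnmb stayed below 1 FPKM in both groups. The 9 lymphocyte markers, Jchain itself included, summed to 3.44 and 7.52 FPKM with 6 higher, and the 4 neutrophil markers to 4.61 and 15.5 FPKM with 4 higher. Markers of cholangiocytes summed to 8.17 and 20.8 FPKM with 4 of 5 higher. Of these, Spp1 had 3.30 and 14.9 FPKM, while Sox9 was at 3.69 and 3.86 FPKM and Krt7 at 0 in both groups. Stellate cell markers summed to 9.28 and 12.2 FPKM with 7 of 7 higher. Among them, Col1a1, Col1a2, Col3a1 and Acta2 stayed at or below 0.057 FPKM, too low to read as a rise, and Des had 2.85 and 2.89 FPKM. Endothelial markers summed to 7.59 and 11.7 FPKM with 3 of 6 higher. Itgax and S100a8 are also on these lists. The part of such cells in these members was not tested, and more cells of a type cannot be told apart from more RNA per cell.

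With at least 1 FPKM in the higher group, 2 members were past 2-fold lower in HFD. Ces3b (chr8:105083753-105086622), a liver carboxylesterase gene, had 19.1 FPKM in CD and 4.90 FPKM in HFD (log2 ratio -1.94). Vmn1r4, a vomeronasal receptor gene, had 1.72 and 0.255 FPKM (-2.36). The next 8 members in order at that level did not reach 2-fold. Their ratios ranged from -0.98 for Sel1l3 to -0.69 for Ghr, and included Chd3, Zfp707, Hsph1, Slc27a1, Cth and Chp1. Ghr, the growth hormone receptor gene, had 19.1 FPKM in CD and 11.8 FPKM in HFD. Cth, the cystathionine gamma-lyase of cysteine synthesis, had 4.48 and 2.69 FPKM.

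**Figure D2:**
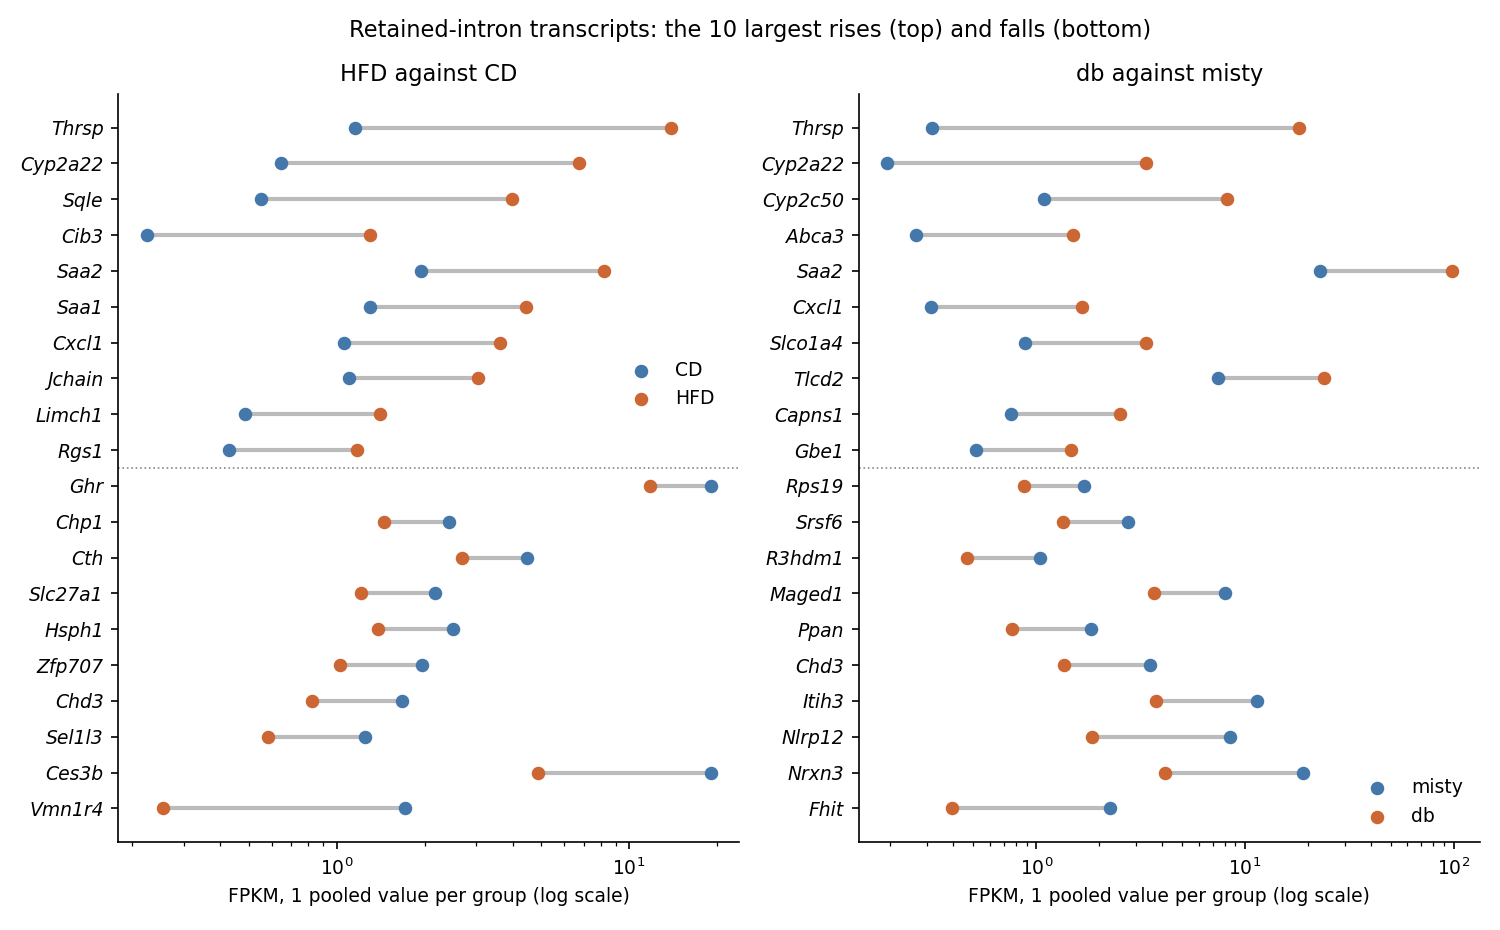
FPKM (log scale) of the 10 members with the highest and the 10 with the lowest ratio of obese over control in each comparison, among those with at least 1 FPKM in the higher group, 1 transcript per gene, control in blue and obese in orange, with a line joining the pooled value of each group. Thrsp and Cyp2a22 stand first in both models, and Ces3b has 19.1 FPKM in CD against 4.90 FPKM in HFD livers.

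In db livers, the retained-intron transcripts as a class were slightly lower, and single members moved in both directions. Of the 750 members, 26 (3.47%) were past 2-fold higher and 26 (3.47%) past 2-fold lower. The background over all 19918 transcripts tested was 8.08% higher and 6.78% lower. With at least 1 FPKM in the higher group, 13 members (5.46%) were higher and 8 (3.36%) lower, against 8.66% and 6.48% of all transcripts. The median log2 ratio of the members was -0.15, and 64.9% of them lay below 0. For coding transcripts the median was -0.01, with 50.9% below 0, and for all transcripts it was -0.03, with 52.7% below 0.

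The lower median was not seen at every level. Among members with a mean of 0.3 to 1 FPKM, 402 in number, the median was -0.17 and 72.4% were below 0, against -0.08 and 58.3% for the coding transcripts of that range. Other noncoding transcripts of coding genes in that range lay nearer to the members. Those typed nonsense-mediated decay had -0.13 and 66.3%, and those typed processed transcript -0.15 and 68.0%. Among the 187 members with 1 to 5 FPKM the median was 0.00 (-0.000745), against 0.04 for coding transcripts. The 23 members with 5 FPKM or more had a median of -0.30, against 0.13. In the HFD comparison the levels were ordered otherwise. The 211 members with 1 to 5 FPKM had a median of -0.09 with 66.8% below 0, against -0.01 and 51.4% for coding transcripts, and the 142 members under 0.3 FPKM a median of 0.11. In db, the 345 transcripts typed nonsense-mediated decay and the 306 typed processed transcript of coding genes also had medians below 0, at -0.11 and -0.09. Members that hold a whole intron (365) had a median of -0.14 and those that hold part of one (379) a median of -0.17. In the HFD comparison the corresponding medians were -0.06 (382) and 0.00 (408, 0.00294).

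**Figure D3:**
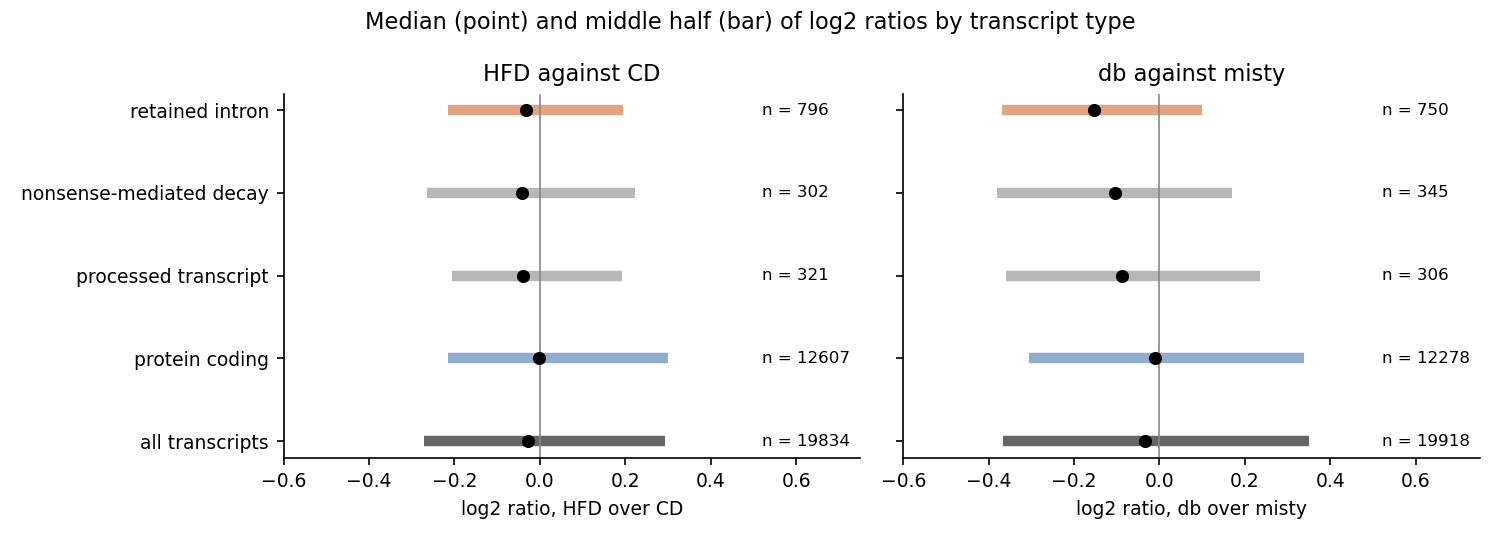
Log2 ratio of obese over control by transcript type, with the median as a point and the middle 50% of transcripts as a bar; n is the number of transcripts. In the db comparison the median of the retained-intron transcripts is -0.15 and that of protein-coding transcripts -0.01, while in the HFD comparison the median of the retained-intron transcripts is -0.03.

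Thrsp again had the largest ratio, with 0.317 FPKM in misty and 18.1 FPKM in db livers (log2 ratio 5.45). Cyp2a22 had 0.192 and 3.36 FPKM (3.57) and Cyp2c50, another cytochrome P450 gene, 1.08 and 8.17 FPKM (2.80). Among transporter genes, Abca3, which carries lipids, had 0.265 and 1.501 FPKM, and Slco1a4, which carries organic anions, 0.888 and 3.35 FPKM. Saa2 and Cxcl1 were higher by 2.09 each on the log2 scale, Cxcl1 with 0.312 and 1.65 FPKM. Tlcd2 had 7.46 and 23.9 FPKM. Capns1, the small calpain subunit, had 0.757 and 2.53 FPKM, and Gbe1, the glycogen branching enzyme, 0.516 and 1.47 FPKM. The macrophage markers had sums of 30.9 FPKM in misty and 26.1 FPKM in db, with 5 of 10 higher in db. Lymphocyte markers summed to 1.24 and 1.48 FPKM, neutrophil markers to 2.95 and 2.40 FPKM, stellate cell markers to 13.9 and 17.0 FPKM, endothelial markers to 8.29 and 9.12 FPKM and cholangiocyte markers to 8.75 and 7.81 FPKM.

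The lowest ratios were those of Fhit, a diadenosine triphosphate hydrolase gene, from 2.27 to 0.396 FPKM (log2 ratio -2.25), Nrxn3, a neurexin gene, from 19.0 to 4.12 FPKM (-2.18), and Nlrp12, an innate immune regulator, from 8.44 to 1.85 FPKM (-2.13). The Nrxn3 transcript overlaps an exon of Gm37980 on the other strand. Itih3, which encodes a plasma protein that binds hyaluronan, went from 11.4 to 3.76 FPKM (-1.57). Its reference transcript is not in GENCODE M21. Chd3, a nucleosome remodeller, went from 3.51 to 1.35 FPKM (-1.31) and was also lower in HFD, from 1.67 to 0.822 FPKM (-0.94). Ppan, a ribosome assembly factor, went from 1.83 to 0.764 FPKM, with a snoRNA gene inside its transcript. Maged1 went from 8.06 to 3.67 FPKM and R3hdm1 from 1.04 to 0.468 FPKM. Srsf6, a splicing factor of the SR family, had 2.76 and 1.34 FPKM and Rps19, a ribosomal protein gene, 1.69 and 0.873 FPKM, both short of 2-fold.

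The models share no mice, so they can be set side by side. Of the members, 415 were listed once in both tables. Past 2-fold higher in both were 5 of them (1.20%), against 1.55% of the 6978 transcripts of any type listed once in both. They were Thrsp (log2 ratios 3.49 in HFD and 5.45 in db), Cyp2a22 (3.20 and 3.57), Saa2 (2.03 and 2.09), Cxcl1 (1.69 and 2.09) and Fabp4 (1.30 and 1.13). Fabp4, the fatty acid binding protein of adipocytes and macrophages, stayed below 1 FPKM in all 4 groups. No member was past 2-fold lower in both, against 1.15% of all transcripts, or past 2-fold in opposite directions, against 0.473%. Across the 415 members, the 2 sets of log2 ratios had a Spearman's rho of 0.28, and across the 6978 transcripts it was 0.29. These are descriptions across transcripts of the same 2 pairs of pooled values. Below 0 in both were 171 members and above 0 in both 77. Within each comparison, members already lay more often below 0, 53.6% of them in HFD and 64.9% in db. The same count over all transcripts was not made, so no shared fall is read from it.

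Whether a member moved with the mRNA of its own gene was asked next. In the HFD comparison, 176 of the 747 genes had no coding partner in the table and 6 had one at 0, which left 565 genes. In the db comparison, 157 of 694 had none and 6 had one at 0, which left 531. The listed partner was under 0.01 FPKM in a group for 83 and 93 of these genes. Such values cannot stand for the mRNA of a liver. The coding transcript of Hspa8 was listed at 454 and 323 FPKM in CD and HFD but at 0.0898 and 0.0949 FPKM in misty and db, and that of Saa2 at 0.0162 FPKM or less in all 4 groups. The within-gene values are therefore about the listed transcripts and not about all mRNA of a gene.

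In the HFD comparison, the median of the member's log2 ratio minus the partner's was -0.05, with the middle 50% of genes between -0.24 and 0.12, and 43.9% of genes lay above 0. In db the median difference was -0.16, with the middle 50% between -0.43 and 0.11, and 33.9% of genes lay above 0. With a partner of at least 0.1 FPKM in both groups, the median difference was -0.06 over 418 genes in HFD and -0.19 over 397 genes in db, where the member's median was -0.17 and the partner's 0.02. Other noncoding transcripts of coding genes, typed nonsense-mediated decay or processed transcript, lay in the same range, with a median difference of -0.03 over 281 genes in HFD and -0.14 over 279 genes in db. No test separates these from the members. Spearman's rho between the ratios of members and partners was 0.55 over 565 genes in HFD and 0.43 over 531 genes in db, as a description across genes of the same pooled libraries.

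Among the 27 genes whose members summed past 2-fold higher in HFD, 21 had a usable partner. That partner was past 2-fold higher too in 11, among them Saa1 (17.9 and 63.9 FPKM for the coding transcript), Cyp2a22 (0.325 and 2.605 FPKM), Limch1, Ccl2 and Itgax. It was higher by less in 8 and not higher in 2. Taken from the partner's side, 30 genes had a coding partner past 2-fold higher, of which 11 had a member past 2-fold higher too, and 10 had one past 2-fold lower, of which 2 had such a member. Ces3b was lower together with its coding transcript, which had 12.7 FPKM in CD and 2.95 FPKM in HFD (log2 ratio -2.07). Ghr did not, as its coding transcripts summed to 22.2 and 21.9 FPKM while the member had a log2 ratio of -0.69.

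In db, 25 genes were past 2-fold higher, 15 of them with a partner, which was past 2-fold higher in 7. Of 29 genes with a partner past 2-fold higher, these 7 had such a member, and of 9 with a partner past 2-fold lower, 3 did. Among the 7, Cyp2c50 was one, with 29.2 FPKM in misty and 143 FPKM in db for its coding transcript, and Gbe1 another, with 24.7 and 73.5 FPKM. Of 24 genes past 2-fold lower, 15 had a partner, which was past 2-fold lower in 3 and not lower in 4. The 4 were Fhit, Nrxn3, Itih3 and Slc6a21. For Fhit, the coding transcripts summed to 3.13 FPKM in misty and 7.57 FPKM in db, opposite to the member. Thrsp had a coding transcript listed at 0.304 and 0.219 FPKM in CD and HFD and at 0.255 and 0.293 FPKM in misty and db, so its listed difference stood in the retained-intron transcript. That transcript holds only part of an intron, and whether its value stands for the mRNA was not tested.

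**Figure D4:**
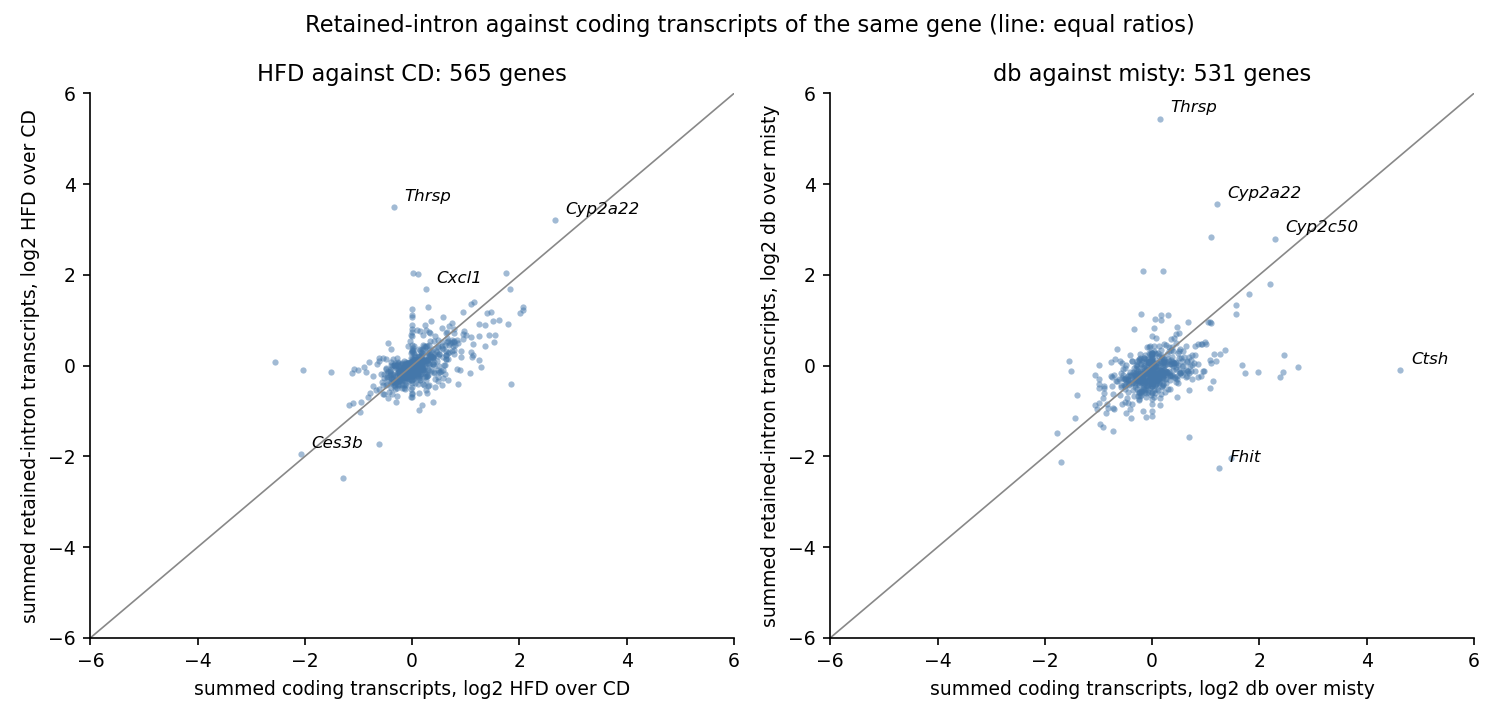
Log2 ratio of the summed retained-intron transcripts of a gene against that of its summed coding transcripts, 1 point per gene, with a line where both are equal. Ces3b and Cyp2c50 lie near the line, Thrsp lies far above it in both models (3.49 and 5.45 against -0.34 and 0.15), and Ctsh and Fhit lie below it in db.

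The share of a gene's listed FPKM that was in retained-intron transcripts was computed for genes with at least 1 FPKM over both kinds in both groups. For 391 genes of the HFD comparison the median share was 28.6% in CD and 28.4% in HFD. For 369 genes of the db comparison it was 30.3% in misty and 25.1% in db. The median change per gene was smaller, at -0.25 percentage points in HFD and -1.27 in db. The share was higher in 158 and lower in 230 of the 391 genes, and higher in 111 and lower in 252 of the 369. In HFD it was higher by at least 10 percentage points in 8 genes (2.05%) and lower by as much in 8 (2.05%). The same measure over 188 genes with other noncoding transcripts gave 3.72% and 2.66%. In db it was higher by as much in 4 genes (1.08%) and lower in 25 (6.78%), against 4.79% and 7.98% of 188 genes with other noncoding transcripts. In db, lower shares outnumbered higher ones in both kinds of transcript.

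Several of the largest shifts stood on the coding side. Ctsh, the lysosomal protease cathepsin H, had the largest difference, with a share of 91.7% in misty and 20.5% in db. Its member was at 1.75 and 1.63 FPKM, while the listed coding transcript went from 0.159 to 6.31 FPKM. The share of Ctsh was also lower in HFD, at 99.7% and 87.5%, again with more coding transcript (0.00713 and 0.283 FPKM), the first of which is too low to stand for the mRNA. Ddx47, an RNA helicase gene, went from 51.4% to 13.2% in db, with coding values of 0.839 and 4.81 FPKM. Immp2l, a mitochondrial peptidase gene, went from 34.7% to 14.9%, and Tatdn3 from 46.1% to 30.5%. Wdr45b went from nearly all to 73.5%, with its coding transcript listed at 4.99e-06 FPKM in misty. Fhit went from 42.0% to 4.97%, with the member lower and the coding sum higher.

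Men1, the gene of the tumour suppressor menin, was the only gene whose share was higher by at least 10 points in both models, and Ctsh the only one lower by as much in both, among 200 genes measured in both. For Ctsh in HFD this rests on the coding value under 0.01 FPKM in CD. Men1 went from 62.9% to 78.7% in HFD and from 70.6% to 82.7% in db. The member was at 1.77 and 1.57 FPKM in CD and HFD and at 1.71 and 1.797 FPKM in misty and db, while the coding transcript went from 1.05 to 0.426 FPKM and from 0.712 to 0.377 FPKM. The member keeps intron 7 of 9, with 406 bases and a stop at codon 2. In HFD, Thrsp (79.1% to 98.5%), Ltbp1 (61.8% to 78.0%), Cyyr1, Slc11a1 and Bcl6 (25.8% to 36.8%) had the other largest increases. Bcl6, a transcriptional repressor, had a member at 0.968 and 1.61 FPKM and coding transcripts at 2.79 and 2.76 FPKM. The largest decreases in HFD were in Slc43a3, from 54.9% to 31.7%, Mtfmt, Apeh, Xaf1, Cct3 and Ppm1g. In db the other increases were in Cyp2a22 (3.23% to 19.96%), Ube2q1, Snx10, Rabl3 and Tnfaip2, of which the last 2 stayed under 10 points.

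**Figure D5:**
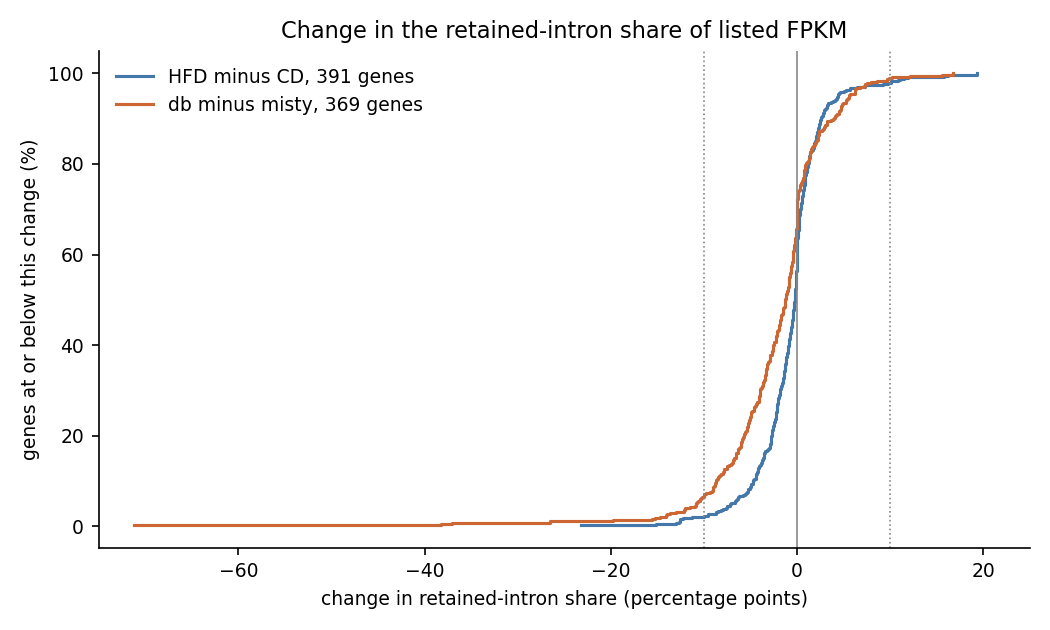
Cumulative percent of genes by the change in their retained-intron share, obese minus control, in percentage points, for 391 genes in HFD (blue) and 369 genes in db (orange); dotted lines mark 10 points in either direction. The db line lies to the left of the HFD line below 0, with 25 genes against 8 lower by 10 points or more.

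Splicing factors and their kinases, the genes best known for regulated intron retention, gave different values in the models. In HFD, 14 members of 12 such genes split evenly, 7 above and 7 below 0, with a median log2 ratio of 0.01 (0.00899). None was past 2-fold. Prpf38b had 4.49 and 4.86 FPKM, Clk1 4.48 and 4.42 FPKM, Ccnl2 3.21 and 3.06 FPKM and Srrm1 1.81 and 1.68 FPKM. In db, all 12 members of 10 genes lay below 0, with a median of -0.27 against -0.15 for all members, of which 64.9% lay below 0, and again none was past 2-fold. Srsf6 was at 2.76 FPKM in misty and 1.34 FPKM in db (-0.99), Hnrnpl at 5.55 and 3.69 FPKM (-0.58), Srsf3 at 3.85 and 3.11 FPKM (-0.30) and Prpf38b at 5.34 and 4.43 FPKM (-0.26). The coding transcript of Srsf6 was at 10.4 and 9.23 FPKM, so its listed retained-intron share went from 21.1% to 12.7%. The share was lower in 4 of the 7 splicing genes with a share. That of Srrm1 went from 97.8% to 99.2%. This leaves very little listed coding transcript in either group, so no rise is read from it. The 7 genes with a partner had a median partner ratio of -0.01. The difference between the models was not tested. The study's methods give another centre, library kit and instrument for the HFD and CD libraries than for its other cohorts. If so, the model cannot be told apart from the preparation.

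Of the inflammation and interferon genes, 15 members of 13 genes were listed in HFD, 12 above 0 and 5 past 2-fold higher, with a median of 0.62 and a median of 0.51 for their partners. Over all transcripts 6.80% were past 2-fold higher and 52.8% below 0. With 1 FPKM added in place of 0.1, the count was 1. The 5 were Cxcl1, Tnfaip3, Ccl2, Ccl5 and Cxcl2, of which Cxcl1 alone reached 1 FPKM. Abundant class I members moved little, with 10.7 and 9.41 FPKM for H2-T23 and 8.22 and 7.72 FPKM for H2-K1. In db, 6 members had a median of -0.22 and Cxcl1 was the only one past 2-fold. Lipid metabolism genes had 6 members in each comparison, of which 3 were past 2-fold higher in HFD (Thrsp, Sqle and Msmo1) and 1 in db (Thrsp). With 1 FPKM added, it was 2 in HFD and 1 in db. For all lists, the background over all transcripts was 6.80% past 2-fold higher and 3.89% lower in HFD. In db it was 8.08% and 6.78%. Lists of this size are too small to compare with these shares. Sqle was at 2.77 and 3.38 FPKM in misty and db, and Ebp, a sterol isomerase gene, at 3.27 and 2.26 FPKM in CD and HFD. Plasma protein genes had 5 and 4 members. Saa1 and Saa2 were past 2-fold higher in HFD, Saa2 in db, and Itih3 lower in db, while Apoc4 had 2.76 and 1.72 FPKM in CD and HFD.

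Xenobiotic enzymes had 6 members in HFD, with Ces3b past 2-fold lower, and 8 in db, with Cyp2c50 past 2-fold higher. Fmo1, a flavin monooxygenase, had 7.94 and 9.54 FPKM in CD and HFD and 6.10 and 11.95 FPKM in misty and db, and its coding transcripts summed to 1.95 FPKM in misty and 3.18 FPKM in db. Cyp2a12 had 1.33 and 2.74 FPKM in misty and db (0.99). Among genes of amino acid metabolism, Gnmt, the glycine N-methyltransferase, had 2.11 and 1.64 FPKM in CD and HFD but 1.82 and 4.02 FPKM in misty and db (1.10). Asl of the urea cycle had 7.33 and 4.62 FPKM in misty and db beside a coding transcript at 195 and 193 FPKM, and Ftcd, of histidine breakdown, 13.4 and 9.41 FPKM in CD and HFD beside 144 and 94.4 FPKM. Glucose and insulin signalling genes had 7 members in each comparison, with Gbe1 in db alone past 2-fold. With 1 FPKM added, neither Gbe1 nor Gnmt was past 2-fold in db. Stress genes had 7 members in HFD and 4 in db. The early response gene Fosb, at 0.0418 and 0.220 FPKM, was the only one past 2-fold. Dusp1, an early response phosphatase, had 2.90 and 5.18 FPKM in CD and HFD and 4.57 and 4.60 FPKM in misty and db. The heat shock gene Hsph1 was lower in both, at 2.51 and 1.38 FPKM and at 3.69 and 2.32 FPKM.

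Ribosomal protein genes had 7 members in HFD, 5 of them below 0, and 9 in db, 7 of them below 0, with medians of -0.12 and -0.34. Past 2-fold were Rpl23a lower in HFD, and Rpl9 higher and a Rpl3 transcript lower in db, none above 0.385 FPKM in either group. Another Rpl3 transcript went from 2.86 to 1.60 FPKM in db. Genes of RNA decay had 4 members in HFD, with a median of -0.10 and none past 2-fold, and no member in db. Genes of mitochondrial respiration had 1 and 3 members, none past 2-fold.

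The labelled tissue was checked by hepatocyte markers, all 8 of which were listed, with sums of 8188 FPKM in CD, 5642 FPKM in HFD, 7444 FPKM in misty and 5429 FPKM in db. Alb and Apob, which every liver expresses strongly, were listed at 0 in all 4 groups, so an estimate of 0 may have failed. Other markers were high in 1 table only, such as Ttr, with 3053 FPKM in CD and 0.664 FPKM in misty, and Cyp2e1, with 2.81 FPKM in CD and 2681 FPKM in misty. Cps1 was listed at 5.68e-05 FPKM in CD. The sums therefore rest on different genes in each table.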

How the data were processed

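Total RNA of mouse liver was sequenced in strand-specific libraries. Per the submitters' processing notes and the study's methods, reads were filtered with Bowtie2 2.2.9, aligned with STAR 2.6.0c to GRCm38 (mm10) and assembled with Cufflinks 2.2.1. Cuffdiff of the same Cufflinks suite then compared the groups. The authors deposited 2 tables, 1 per comparison, with 1 FPKM value per group for each assembled transcript, pooled over the replicates, beside the name and type of the nearest Ensembl transcript. Several assembled transcripts can share 1 nearest transcript. The tables also hold the authors' own fold changes, test statistics, p- and q-values, which were not used. The Cuffdiff status was used only as the filter that chose the members. No column of per-sample values was left unused (0 columns).

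Ratios were computed from FPKM plus 0.1 in Python 3.11.15 with pandas 2.3.3 and numpy 2.4.6, and figures were drawn with matplotlib 3.10.9. Scripts were tested on simulated data. A coding partner was the sum over the listed coding transcripts of the gene. Intron structure and sequences came from GENCODE M21 (GRCm38), with introns of at least 30 bases. Tables do not list all transcripts of a gene, so shares are of listed FPKM. Named were, with at least 1 FPKM in the higher group and 1 transcript per gene, the 10 highest and 10 lowest ratios, the 8 most abundant members, the 6 largest shifts of share in each direction, members past 2-fold in both models, and up to 4 examples from each of 11 gene lists, with others named where said or to fill out a group. A result of 1 abundant member is not reported here. Members and lists were chosen with earlier results of these data known. Alternatives were 2 other pseudocounts, a filter at 1 FPKM, centring, a 1.5-fold size, and other choices of partner and member.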

Additional observations from a re-analysis of the deposited data

How the results depend on the processing

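Of 128 values recomputed under alternative settings, 90 stayed within the tolerance and 38 moved beyond it. The tolerance was 0.1 for a median log2 ratio, 5 points for a percent and 1.5 times for a count. Several medians were smaller than the tolerance or close to it, so staying within it says little about them. In db the median of the members was -0.15, and -0.06 with 1 FPKM added. The median difference from the partner, with at least 1 FPKM of both, was -0.02 in place of -0.05 in HFD. In db it was -0.25 in place of -0.16. The median change of share in db was -0.65 points with at least 5 FPKM, in place of -1.27. Changes of sign were not counted. With 0.01 FPKM added, the HFD comparison had 46 higher and 17 lower, the db comparison had 45 lower, and 2 members were lower in both models instead of 0. With 1 FPKM added, it was 6 higher and 2 lower in HFD and 8 higher and 4 lower in db. With at least 1 FPKM in the higher group, it was 10 and 2 in HFD and 13 and 8 in db. At 1.5-fold, it was 86 and 42 in HFD and 48 and 91 in db. With members that hold a whole intron, an alternative chosen after seeing the data, it was 15 and 4 in HFD and 13 and 9 in db. For the 2 other pseudocounts and the 1.5-fold size, the share over all transcripts was not computed. Counts at those settings are therefore not set against a background. The percent of genes whose member ratio exceeded the partner's in HFD was 49.4 with at least 1 FPKM of both. With at least 5 FPKM, the median share was 10.1% in CD, 9.4996% in HFD, 10.4% in misty and 8.76% in db, and the share was higher by 10 points in 0 genes and lower in 1 in HFD, and higher in 1 and lower in 3 in db. With every retained-intron transcript of a gene regardless of test status, the median share was 23.05% in HFD and 24.3% in misty. The 42 counts over the gene lists were recomputed only with 1 FPKM added, and 7 of them moved. The cause of these shifts was not tested, except that stricter filters leave fewer members. No paired analysis was possible because the files hold 1 pooled value per group, and for the same reason no replicate could be left out. Depth is unknown, so differences at low FPKM carry no error estimate.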
